A study of Mus musculus with 11 samples.

Results

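The 10 genes described here mark the endothelial cells that line brain vessels and the blood-brain barrier these cells form: Cdh5, Pecam1, Cldn5, Flt1, Kdr, Tek, Slco1a4, Mfsd2a, Vwf and Gpr182. They were chosen by name from the 20957 genes of the deposited table, and all 10 were among the 16768 genes with enough signal to be tested. RNA was sequenced from punches of the striatum of BACHD mice, a model of Huntington's disease that expresses human mutant huntingtin at full length from a transgene. The mice received subcutaneous injections of SPI-77 (3 libraries), SPI-24 (4 libraries) or the solvent DMSO (4 libraries) for 4 days, with tissue taken 6 h after the final injection. SPI-77 and SPI-24 are small-molecule inhibitors aimed at Spt5, a transcription elongation factor, in complex with Pol II. Every group carried the transgene, so no comparison here speaks of mice without it. Dose, age and sex are not in the labels, and the subcutaneous doses in the study's text are unequal for SPI-77 and SPI-24, so the compounds cannot be compared at a matched dose. The tissue is a mixture of cells, and fewer endothelial cells cannot be told apart from less RNA per endothelial cell.

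Endothelial cells of the brain are sealed to each other by tight and adherens junctions and carry few vesicles, so that most solutes cross only through transporters in their membranes. Growth factors of the VEGF and angiopoietin families act on receptor tyrosine kinases of these cells, and Wnt signals from the surrounding brain maintain the barrier state. Larger vessels also hold smooth muscle cells, while capillaries are covered by pericytes, and both are called mural cells.

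The libraries held 10.2 M to 33.8 M reads. Genes with a value above 0 numbered 16263 in SPI-24 library 4, despite its 26.0 M reads. They numbered 17932 in SPI-77 library 3 and 19342 to 20313 in the other libraries. Markers of the dissected region differed between groups. The summed level of 11 markers of medium spiny neurons, the main neurons of the striatum, was 4804 to 8021 normalized counts in SPI-77 libraries, 3672 to 75412 in SPI-24 libraries and 22521 to 86402 in DMSO libraries. The sum of 10 thalamic markers was 12586 to 16433 in SPI-77 libraries, 10828 to 36766 in SPI-24 libraries and 3130 to 15552 in DMSO libraries. Xist was at or below 7.70 normalized counts in all 3 SPI-77 libraries, in SPI-24 library 3 and in DMSO libraries 2 and 4, and between 3333 and 4662 in the other 5 libraries. Ddx3y, a gene of the Y chromosome, was at 78.6 to 310 in the libraries with low Xist and at 0 in the other 5. By these genes all SPI-77 libraries came from males, while SPI-24 and DMSO libraries came from both sexes. With SPI-77 against DMSO 5 of the 11 medium spiny markers were called lower, among them Pdyn (log2 fold change -2.26), Pde10a (-3.74) and Drd1 (-4.00). The thalamic markers Calb2 (1.84) and Gbx2 (2.46) were called higher. Over all genes tested, 5.28% were called lower and 1.12% higher. With SPI-24 against DMSO no marker of either list was called. The medium spiny median was nevertheless -1.85 with SPI-24 and -2.91 with SPI-77, and the thalamic median 1.42 and 1.10. The part of these differences in the results below was not tested.

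Values are normalized counts, which are reads divided by a size factor of the library. A gene was called when its limma adjusted p-value over all genes tested was below 0.05 and its fold change was at least 2. With SPI-77, 2 of the 10 genes were called against DMSO, Vwf and Gpr182, both higher, where 1.12% of all genes tested were called higher. None of the 10 was called lower, against 5.28% of all genes. The 10 genes were chosen with earlier results of these data known. The study's own list of genes raised by short-term SPI-77 holds both Vwf and Gpr182. These shares are therefore a description and not a test. The values of SPI-77 and DMSO libraries did not overlap for 5 genes that were higher with SPI-77 (Vwf, Gpr182, Cldn5, Mfsd2a and Pecam1) and for 1 that was lower (Tek). The same separation held for 17.2% of all genes in the upward and 15.3% in the downward direction. The median log2 fold change was 0.34 over the 10 genes and -0.01 over all genes tested.

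**Figure D1:**
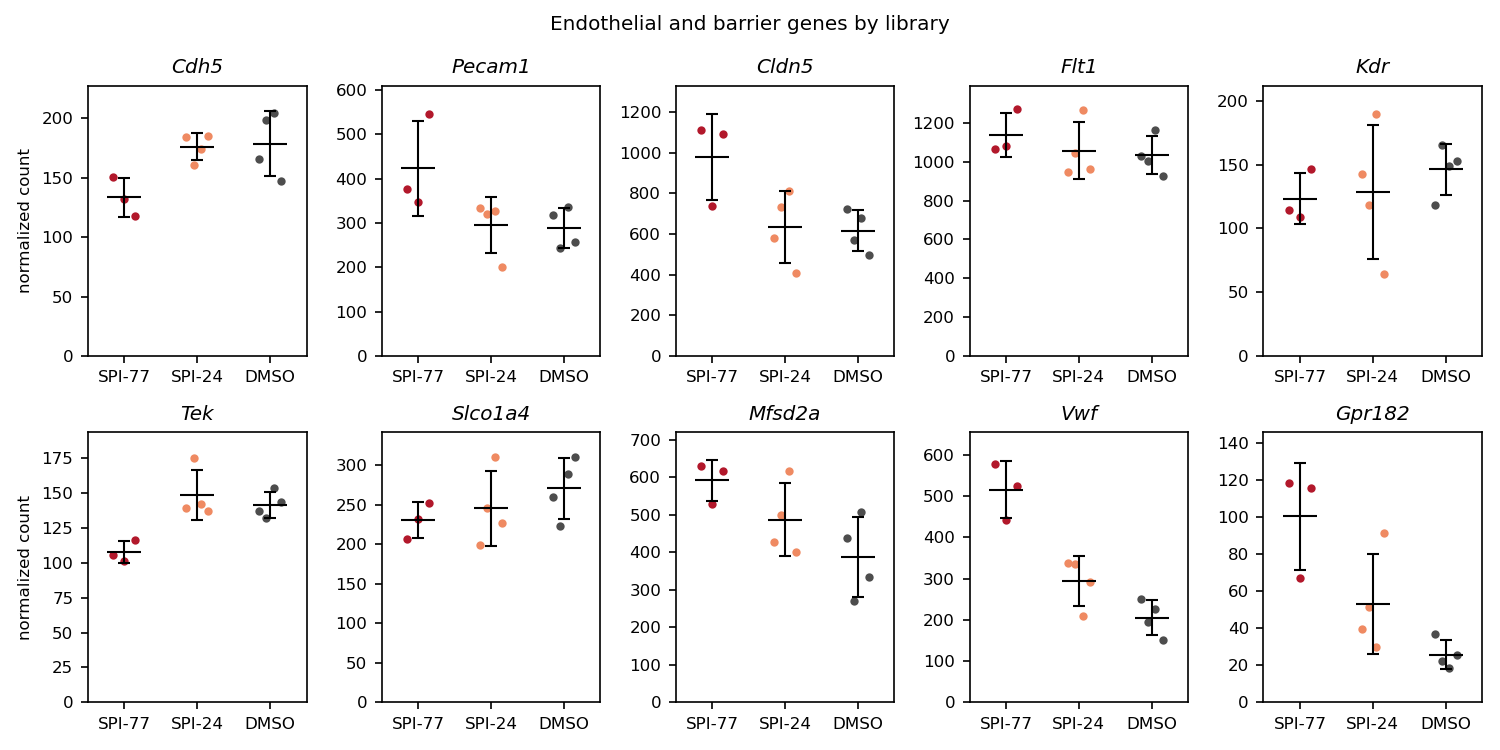
Normalized counts (vertical axes, from 0) of the 10 genes in each library, in the order SPI-77, SPI-24, DMSO. Points are libraries and black marks are the mean with SD (n = 3, 4 and 4). Vwf lies between 442 and 578 in SPI-77 libraries, 209 and 337 in SPI-24 libraries and 150 and 249 in DMSO libraries.

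Vwf encodes von Willebrand factor, which endothelial cells store and release to bind platelets (chr6:125546774-125686679, plus strand, GRCm38). It had 578, 442 and 525 normalized counts in SPI-77 libraries 1 to 3, 337, 336, 209 and 291 in SPI-24 libraries 1 to 4, and 249, 195, 227 and 150 in DMSO libraries 1 to 4. Every SPI-77 library was above every other library. SPI-24 and DMSO overlapped through SPI-24 library 3. The mean was 515 ± 68.4 with SPI-77, 293 ± 60.3 with SPI-24 and 205 ± 43.1 with DMSO (SD, n = 3, 4 and 4). Vwf rose with SPI-77 against DMSO, with a log2 fold change of 1.34 ± 0.22 (SE, limma adjusted p = 0.0179). The value was 1.32, 1.20, 1.25 and 1.32, with adjusted p = 0.0626, 0.0535, 0.0569 and 0.0831, when DMSO library 2, DMSO library 4, SPI-77 library 1 or SPI-77 library 3 was left out, so that the call was lost each time. Among the libraries with low Xist, Vwf had 442 to 578 normalized counts with SPI-77, 209 in the SPI-24 library, and 195 and 150 with DMSO. A fit on these libraries, chosen after seeing the data and with 1 SPI-24 library, gave log2 fold changes with SPI-77 against DMSO of 1.58 for Vwf and 1.98 for Gpr182.

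Gpr182 encodes a receptor of the G-protein-coupled class that is found on endothelium and binds chemokines without classical signalling (chr10:127747276-127751732, minus strand). It had 119, 67.1 and 116 normalized counts in SPI-77 libraries 1 to 3, 39.9, 51.7, 30.2 and 91.5 in SPI-24 libraries 1 to 4, and 36.8, 22.3, 18.8 and 25.7 in DMSO libraries 1 to 4. Only SPI-24 library 4 reached into the SPI-77 range, and only SPI-24 library 3 fell below the highest DMSO library. Gpr182 rested on few reads, with 61 to 89 reads in SPI-77 libraries, 28 to 152 in SPI-24 libraries and 17 to 55 in DMSO libraries. It rose with SPI-77 against DMSO by a log2 fold change of 1.92 ± 0.41 (limma adjusted p = 0.0181). Without DMSO library 2, DMSO library 4, SPI-77 library 1 or SPI-77 library 3 the log2 fold change was 1.86, 1.93, 1.77 or 1.79 and the adjusted p was 0.0640, 0.0547, 0.0623 or 0.0838, and the call was lost. The exons of Gpr182 share 74 bases with Zbtb39 on the opposite strand, and whether counting used the strand is not stated. Zbtb39 itself had a log2 fold change of -0.25 ± 0.24 with SPI-77 (limma adjusted p = 0.491).

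Among the junction genes, Cldn5 encodes claudin-5, the main sealing protein of tight junctions at the barrier (chr16:18776847-18778262, plus strand). Cldn5 had 1111, 736 and 1091 normalized counts in SPI-77 libraries 1 to 3, 582, 731, 810 and 409 in SPI-24 libraries 1 to 4, and 720, 568, 678 and 499 in DMSO libraries 1 to 4. SPI-77 library 2 exceeded the highest DMSO library by a small margin, and SPI-24 library 3 was above it, while the other SPI-77 libraries were above all. The log2 fold change with SPI-77 against DMSO was 0.66 ± 0.24 and missed the threshold (limma adjusted p = 0.0687).

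Pecam1 encodes the adhesion molecule CD31, found at contacts between endothelial cells and on some blood cells (chr11:106654217-106750628, minus strand). Its values were 377, 347 and 546 normalized counts in SPI-77 libraries 1 to 3, 334, 319, 327 and 200 in SPI-24 libraries 1 to 4, and 318, 243, 336 and 257 in DMSO libraries 1 to 4. SPI-77 library 3 was the highest, and the SPI-77 libraries lay above all others. The log2 fold change with SPI-77 against DMSO was 0.53 ± 0.23 (limma adjusted p = 0.115).

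Cdh5 encodes VE-cadherin, the adhesion protein of endothelial adherens junctions (chr8:104101625-104144511, plus strand). Cdh5 had 151, 132 and 118 normalized counts in SPI-77 libraries 1 to 3, 184, 160, 174 and 185 in SPI-24 libraries 1 to 4, and 165, 198, 204 and 147 in DMSO libraries 1 to 4. SPI-77 libraries were below every SPI-24 library, but DMSO library 4 was below SPI-77 library 1. The log2 fold change with SPI-77 against DMSO was -0.41 ± 0.19 (limma adjusted p = 0.148).

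The ratio of 2 genes within a library does not depend on the library's size factor, and the pairs given here were chosen after their values were seen. Vwf over Cdh5 was 3.84, 3.35 and 4.45 in SPI-77 libraries 1 to 3, 1.83, 2.10, 1.20 and 1.57 in SPI-24 libraries 1 to 4, and 1.51, 0.98, 1.11 and 1.02 in DMSO libraries 1 to 4. Cldn5 over Cdh5 averaged 7.40 ± 1.84 with SPI-77, 3.64 ± 1.17 with SPI-24 and 3.48 ± 0.63 with DMSO (SD, n = 3, 4 and 4). In both ratios the SPI-77 libraries lay above all others, and this also held for Pecam1 over Cdh5. In the other pairs the SPI-77 libraries did not lie above all others. Vwf over Pecam1 was 0.96 to 1.53 with SPI-77, 0.64 to 1.46 with SPI-24 and 0.58 to 0.80 with DMSO. SPI-77 thus lay above DMSO in this pair but overlapped SPI-24. Flt1 over Kdr was 8.67 to 9.95, 6.66 to 15.1 and 6.07 to 8.72 in the same groups. Because the pairs over Cdh5 were chosen for genes that differed in direction, their separation is a description of the libraries and was not tested.

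**Figure D2:**
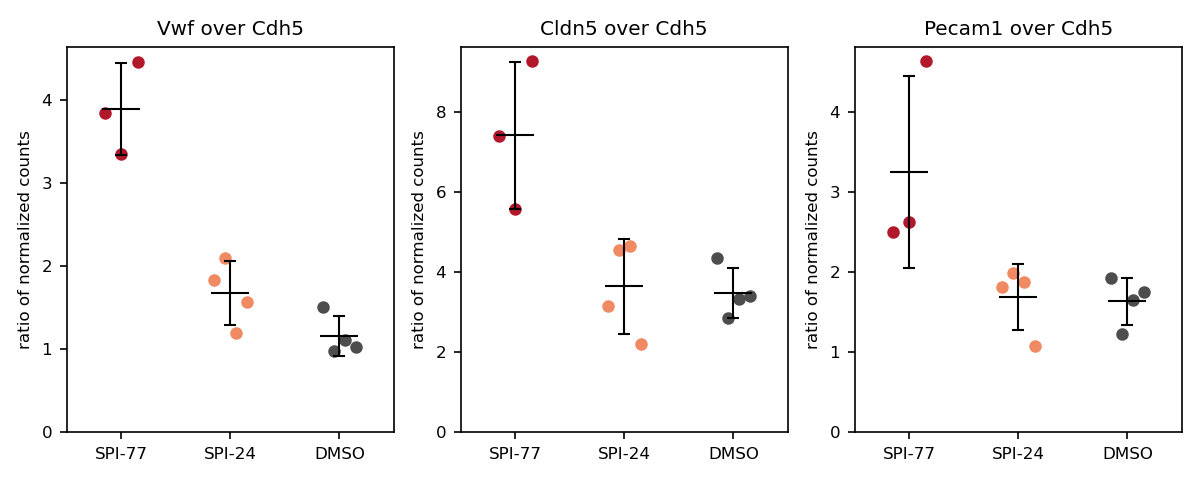
Ratios of normalized counts within each library (vertical axes, from 0) for Vwf, Cldn5 and Pecam1 over Cdh5, in the order SPI-77, SPI-24, DMSO. Points are libraries and black marks are the mean with SD. Vwf over Cdh5 is 3.35 to 4.45 with SPI-77 and 0.98 to 1.51 with DMSO.

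Of the receptors, Tek encodes the angiopoietin receptor TIE2 (chr4:94739289-94874976, plus strand). Tek had 105, 101.2 and 116 normalized counts in SPI-77 libraries 1 to 3, 139, 175, 142 and 137 in SPI-24 libraries 1 to 4, and 137, 132, 153 and 143 in DMSO libraries 1 to 4. All SPI-77 libraries were below all others. The log2 fold change with SPI-77 against DMSO was -0.39 ± 0.19, with a 95% interval of -0.80 to 0.02 (limma adjusted p = 0.163).

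Flt1 encodes VEGF receptor 1, which binds VEGF tightly and signals weakly (chr5:147561604-147726011, minus strand). It had 1066, 1084 and 1269 normalized counts in SPI-77 libraries 1 to 3, 948, 1047, 1268 and 963 in SPI-24 libraries 1 to 4, and 1032, 1005, 1164 and 929 in DMSO libraries 1 to 4. The groups overlapped, with a log2 fold change of 0.14 (95% interval -0.16 to 0.44, limma adjusted p = 0.489) with SPI-77. Kdr encodes VEGF receptor 2, the main signalling receptor for VEGF (chr5:75932827-75978458, minus strand). Its values were 115, 109 and 146 normalized counts in SPI-77 libraries 1 to 3, 142, 118, 190 and 63.8 in SPI-24 libraries 1 to 4, and 118, 165, 149 and 153 in DMSO libraries 1 to 4. SPI-24 library 4 was the lowest and SPI-24 library 3 the highest of all 11. The log2 fold change of Kdr with SPI-77 was -0.25 (95% interval -0.93 to 0.44, limma adjusted p = 0.614) and turned to 0.10 when values were centred by transcript length.

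Of the transporters, Mfsd2a encodes a carrier of lysophospholipids with omega-3 fatty acids that also limits vesicle transport across the barrier (chr4:122946850-122961188, minus strand). Mfsd2a had 630, 528 and 618 normalized counts in SPI-77 libraries 1 to 3, 428, 500, 618 and 402 in SPI-24 libraries 1 to 4, and 439, 272, 508 and 333 in DMSO libraries 1 to 4. SPI-77 libraries were above all DMSO libraries, and SPI-24 library 3 lay within the SPI-77 range. The log2 fold change with SPI-77 against DMSO was 0.64 ± 0.22 (limma adjusted p = 0.0583).

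Slco1a4 encodes an organic anion transporter of the barrier (chr6:141805440-141856199, minus strand). Slco1a4 had 206, 232 and 252 normalized counts in SPI-77 libraries 1 to 3, 199, 246, 310 and 226 in SPI-24 libraries 1 to 4, and 260, 223, 289 and 310 in DMSO libraries 1 to 4. The groups overlapped, and the log2 fold change with SPI-77 was -0.23 (95% interval -0.64 to 0.19, limma adjusted p = 0.431). Slco1a4 has close relatives in the same gene cluster, and reads that fit several places had been removed, so its level is uncertain.

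**Figure D3:**
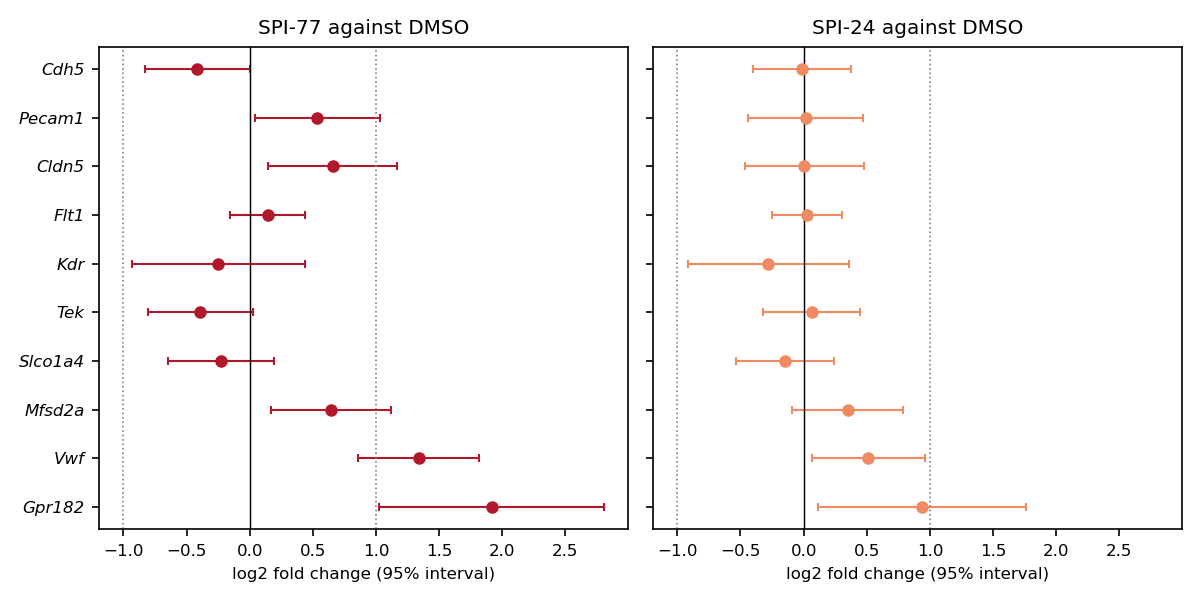
Log2 fold changes from limma (horizontal axes) of the 10 genes with SPI-77 (left) and SPI-24 (right) against DMSO. Bars are 95% intervals and dotted lines mark a 2-fold change. Vwf and Gpr182 are at 1.34 and 1.92 with SPI-77 and at 0.51 and 0.94 with SPI-24, and both comparisons share the DMSO libraries.

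RefSeq promoter windows (GRCm38.p6) were matched for 6 of the 10 genes. The 100 bases before the start are shown for Cldn5 and Mfsd2a, which were higher in all SPI-77 than in all DMSO libraries, and for Tek, which was lower in all of them. Capitals mark the core of ETS factor motifs, GGAA on either strand (TTCC when read on the other strand), since ETS factors act at many endothelial genes. The windows are chr16:18776747-18776846 (plus strand), chr4:122961189-122961288 (minus strand) and chr4:94739189-94739288 (plus strand).
Cldn5: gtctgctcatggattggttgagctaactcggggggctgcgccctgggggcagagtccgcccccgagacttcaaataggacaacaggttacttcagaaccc
Mfsd2a: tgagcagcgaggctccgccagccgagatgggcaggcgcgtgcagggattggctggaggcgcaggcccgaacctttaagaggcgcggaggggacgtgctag
Tek: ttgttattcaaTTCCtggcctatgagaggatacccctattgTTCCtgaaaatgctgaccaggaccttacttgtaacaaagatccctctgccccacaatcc
In the full 250 bases before the start, GGAA occurred 0 times in Cldn5, 2 times each in Mfsd2a and Tek, and 4 times each in Flt1, Kdr and Slco1a4. Of 32851 promoter windows of this length 93.4% held at least 1 match, with a mean of 2.91. A match describes the letters only.

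With SPI-24 none of the 10 genes was called against DMSO, and 0% of all genes were called in the upward and 0% in the downward direction by limma. edgeR and DESeq2 on reads recovered from the table also called 0 genes. This differs from the study, whose own DESeq2 analysis listed a few genes changed by short-term SPI-24. That list holds none of the 10 genes, and the reason for the difference was not tested. At an unadjusted p below 0.05, 625 genes passed in limma, which is 3.73% of all genes tested. That share is smaller than chance alone would give at this limit. Among the 625 were 2 of the 10, Vwf and Gpr182. Vwf had a log2 fold change of 0.51 (95% interval 0.07 to 0.96, adjusted p = 0.975) and Gpr182 of 0.94 (95% interval 0.11 to 1.76, adjusted p = 0.975). None of the 10 separated without overlap, where 0.99% of all genes did so upward and 0.817% downward. The other 8 lay between -0.28 (Kdr) and 0.35 (Mfsd2a), and the median of the 10 was 0.02 against -0.02 over all genes.

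The difference between the compounds was tested directly between the groups as given, at doses that differed. With SPI-77 against SPI-24, none of the 10 genes was called, where 0.34% of all genes were called higher and 2.45% lower. Vwf had an adjusted p of 0.0458 in limma but a log2 fold change of 0.83 (95% interval 0.35 to 1.31), below the 2-fold limit. Vwf and Pecam1 were higher and Tek and Cdh5 lower in all SPI-77 libraries than in all SPI-24 libraries, where 16.1% and 15.3% of all genes separated in these directions. Gpr182 had a log2 difference of 0.98 (95% interval 0.09 to 1.87, adjusted p = 0.135) and Cldn5 of 0.65 (95% interval 0.14 to 1.16, adjusted p = 0.0925). Flt1, Kdr and Slco1a4 had differences of 0.11 (-0.18 to 0.41), 0.03 (-0.65 to 0.72) and -0.08 (-0.50 to 0.34), intervals that do not show that the compounds act alike on them.

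Transcript length moved with the SPI-77 comparison. Over all genes tested, the median log2 fold change with SPI-77 against DMSO was 0.30 in the class of genes with the shortest transcripts, 0.08 and -0.08 in the next classes and -0.34 in the class with the longest, when genes were split by length into 4 classes of nearly equal size. Cldn5, with a longest transcript of 1416 bases, lay 0.35 above the median of its class. Vwf, with 8834 bases, is in the longest class, where 10 genes were called higher and 454 lower, and lay 1.68 above its median. Gpr182 lay 1.99 above the median of its class, and Tek and Cdh5 differed from theirs by -0.31 and -0.33. When values were centred by transcript length, a step chosen after seeing the data, Vwf and Gpr182 kept their calls with log2 fold changes of 1.77 and 1.98 (limma adjusted p = 0.0271 for both), while Cldn5 was at 0.34 (adjusted p = 0.279) and Mfsd2a at 0.49 (adjusted p = 0.122).

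**Figure D4:**
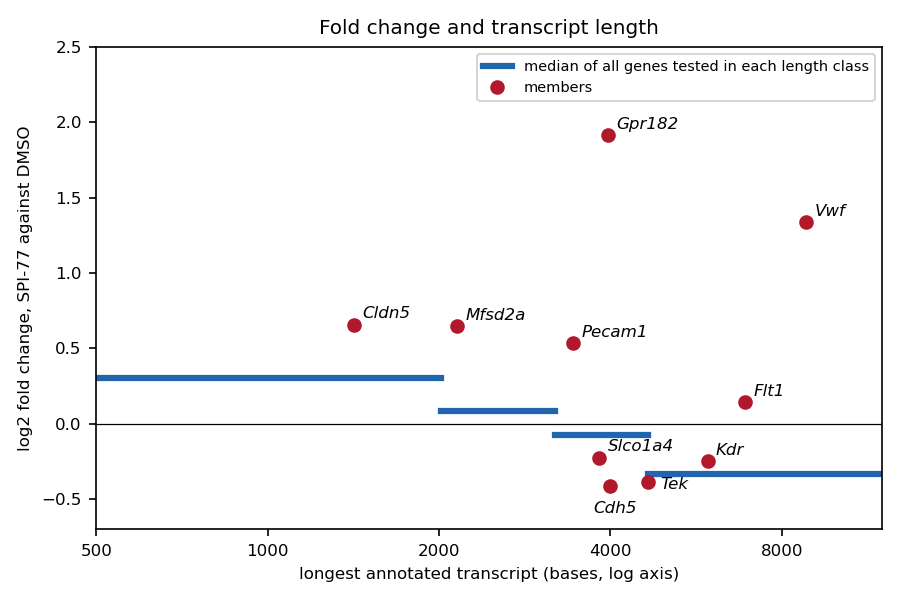
Log2 fold change with SPI-77 against DMSO (vertical axis) by the longest annotated transcript (bases, log axis). Red points are the 10 genes and blue lines the median of all genes tested in each length class, with the outer lines ending at the axis limits. The blue medians are 0.30, 0.08, -0.08 and -0.34 from short to long, and Vwf is at 1.34 with 8834 bases.

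Per kilobase of merged exons, Cldn5 had the highest level of the 10 genes in every group, with a mean of 692 ± 149 normalized counts per kilobase with SPI-77, 447 ± 125 with SPI-24 and 435 ± 71.6 with DMSO. Mfsd2a came next, with 263 ± 24.7 with SPI-77, 216 ± 43.0 with SPI-24 and 172 ± 47.1 with DMSO, followed by Flt1 with 84.4 ± 8.34, 78.2 ± 10.9 and 76.4 ± 7.25 in the same groups. In DMSO libraries Pecam1, Cdh5 and Slco1a4 followed at 46.4 ± 7.32, 42.5 ± 6.47 and 42.1 ± 5.93 per kilobase, neighbours that do not differ beyond their spread on this scale. Per kilobase of the longest transcript they were at 83.9 ± 13.2, 44.7 ± 6.81 and 70.7 ± 9.94, with Cdh5 below the others, so their order depends on the length used. Tek (29.97 ± 1.98), Kdr (16.2 ± 2.20), Vwf (12.8 ± 2.68) and Gpr182 (6.54 ± 1.97) were lower, and Kdr and Vwf did not differ beyond their spread. Vwf was 9th of 10 with DMSO and 6th with SPI-77 on this scale.

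The 10 genes varied in different ways over the 11 libraries. Pearson's r of a gene with the mean of the other 9 was 0.86 for Cldn5, 0.85 for Mfsd2a, 0.82 for Pecam1, 0.67 for Vwf, 0.66 for Flt1 and 0.27 for Gpr182. It was -0.13 for Kdr, -0.25 for Slco1a4, -0.50 for Tek and -0.67 for Cdh5. The genes outside the list most like the mean profile of the 10 were Atp5b (r = 0.97), Atpaf2, Rhov, Kcnn1, Cend1, Ckmt1, Gm48114, 2010320M18Rik, Arfgap3 and Eif1ad (r = 0.95), over the same 11 libraries. These values describe libraries that share treatment, depth and dissection, and none of these 10 like genes is on the endothelial lists.

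A further 160 endothelial genes on 11 lists were tested. With SPI-77 against DMSO, 6 were called higher (3.75%) and 6 lower (3.75%), with a median log2 fold change of 0.04, where 1.12% and 5.28% of all genes were called. With SPI-24 against DMSO none was called. These lists were also chosen with earlier results of these data known, so the shares are a description. The 12 calls with SPI-77 became 0 without DMSO library 2, DMSO library 4, SPI-77 library 1 or SPI-77 library 3, 6 without SPI-77 library 2, and 26 and 18 without DMSO library 1 and SPI-24 library 4. Called higher were Nrp1, a VEGF co-receptor, at 1.33, the amino acid transporter Slc38a5 at 1.04, the capillary carbonic anhydrase Car4 at 1.58, Ramp2, a partner of the adrenomedullin receptor, at 1.26, Ly6a at 1.06 and the matrix protein Mgp at 1.16 (limma adjusted p from 0.0181 to 0.0481). Ly6a has close paralogs and its level is uncertain.

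Called lower were Tjp1, the scaffold ZO-1 of tight junctions, with a log2 fold change of -1.43 (1 of 14 junction genes), the Wnt pathway genes Ctnnb1 at -1.001 and Tspan12 at -1.27 (2 of 16), the iron exporter Slc40a1 at -1.19, the caveolar protein Cav2 at -1.29 and the arterial ligand Efnb2 at -2.41 (limma adjusted p from 0.0179 to 0.0486). Some of these genes, among them Ctnnb1 and Tjp1, are also expressed by neurons or glia. Over all genes tested, 5.28% were called lower with SPI-77 against DMSO. With SPI-77 against SPI-24, Nrp1 was called higher at 1.28 and Tjp1, Ctnnb1 and Tspan12 lower at -1.17, -1.16 and -1.07. The lists of endothelial transcription factors, leukocyte adhesion, haemostasis and lymphatic or sinusoidal endothelium had no call against DMSO, and their genes with the smallest p with SPI-77 were Gata2 (0.94), Cxcl12 (-0.41), F2r (-0.96) and Stab1 (0.95).

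**Figure D5:**
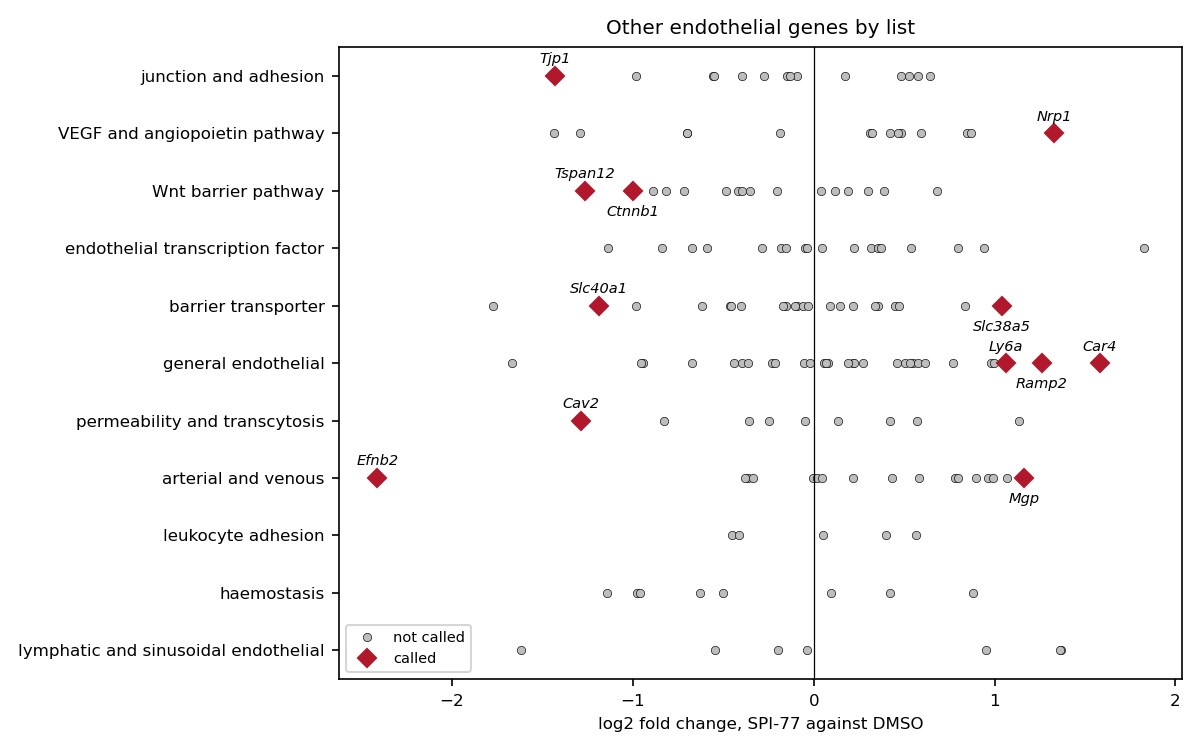
Log2 fold changes with SPI-77 against DMSO (horizontal axis) of the endothelial genes tested on each of 11 lists. Red diamonds were called and grey points were not. The called genes are split 6 to each side of 0, from Efnb2 at -2.41 to Car4 at 1.58.

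Some markers of other cells of the vessel wall were called with SPI-77 against DMSO, where 1.12% of all genes tested were called higher and 5.28% lower. Of 15 mural markers 4 were called higher with SPI-77 against DMSO, all of them genes of the smooth muscle contractile apparatus or its filaments: Acta2 at 1.66, Tagln at 1.65, Myh11 at 1.63 and Des at 1.38, and none was called lower. The other markers of the list, pericyte genes among them, were not called. Log2 fold changes were 0.04 for Pdgfrb, 0.07 for Rgs5, -0.04 for Kcnj8 and -0.60 for Abcc9. They were 1.43 for Cnn1, 1.03 for Higd1b, 0.84 for Vtn and 0.71 for Ndufa4l2. Anpep was at 0.30, Cspg4 at 0.27 and Notch3 at 0.17. Vtn had a limma adjusted p of 0.0197 but stayed below the 2-fold limit. The median of the list was 0.71. With SPI-24 against DMSO no mural marker was called, but Acta2, Tagln, Myh11 and Des were at 0.86, 1.22, 0.73 and 0.52. In that comparison 12 of the 15 markers were above 0 and the list median was 0.16. The summed level of the mural list was 7365 to 8570 normalized counts in SPI-77 libraries, 5912 to 6172 in SPI-24 libraries and 4047 to 6185 in DMSO libraries, a separation in the same direction as that of Vwf. Among 9 meningeal fibroblast markers Slc6a13 was called higher at 1.99, with list sums of 1464 to 1850 with SPI-77, 1393 to 1905 with SPI-24 and 1104 to 1596 with DMSO. Of 8 astrocyte endfoot markers Gja1 was called lower at -1.03, with sums of 23923 to 28635 with SPI-77, 30526 to 41983 with SPI-24 and 32245 to 47011 with DMSO. None of the tested blood, perivascular macrophage or choroid plexus markers was called, and those with the smallest p with SPI-77 were Bpgm (0.45), Cbr2 (1.35) and Enpp2 (-1.13). The blood sums, 8134 to 10692 with SPI-77, 5833 to 7612 with SPI-24 and 5201 to 10195 with DMSO, overlapped between SPI-77 and DMSO. The perivascular macrophage sums did not overlap between SPI-77 and DMSO, at 149 to 179 with SPI-77, 103 to 205 with SPI-24 and 70.5 to 105 with DMSO. The choroid plexus sums were 36950 to 103082 with SPI-77, 6572 to 149208 with SPI-24 and 84701 to 207443 with DMSO. The part of these markers in the values of Vwf and the other 9 genes was not tested.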

How the data were processed

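RNA of 11 striatal libraries was sequenced with a stranded poly(A) kit, and the labels call the libraries biological replicates. The authors trimmed reads with cutadapt, aligned them to GRCm38 with STAR, counted unique reads with HTSeq and normalized with DESeq2. No version of these tools and no strand setting was found in the labels or methods. The deposited values are a signal, normalized read counts. The deposited fold changes and p-values of the authors were not used. Values were whole multiples of 1 step (100% within 0.1 step in each library), so reads were recovered for edgeR 4.0.16 and DESeq2 1.42.0, run as alternatives. Of the identifiers 20930 (99.9%) matched GENCODE, and 24 names turned into dates were restored.

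Groups were compared with limma 3.58.1 (R 4.3.3, trend and robust) on log2(normalized count + 1), a scale that understates changes of low genes, for genes with at least 10 in at least 3 libraries, with Benjamini-Hochberg adjustment over all genes tested. The script was tested on simulated data. Named are all 10 genes, the genes of each list called against DMSO (at most 4) or, with none, that with the smallest p, and the 10 genes most like the mean profile. The genes and lists were chosen with earlier results of these data known. Alternatives were pseudocounts, filters, scaling, tools, a replicate block and leaving out each library. A further 3 were added after seeing the data: leaving out both libraries numbered 4, keeping only libraries with low Xist, and centring by transcript length.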

Additional observations from a re-analysis of the deposited data

Results flagged for a closer look

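In each group of 4 libraries the highest and lowest value of each of the 10 genes was compared with the rest by Dixon's ratio, 20 groups in all, of which chance flags about 1 in 20. Pecam1 in SPI-24 library 4 stood apart, at 199.87 normalized counts against 319 to 334 in the other SPI-24 libraries. Tek in SPI-24 library 2 stood apart, at 174.99 normalized counts against 137 to 142 in the other SPI-24 libraries.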

How the results depend on the processing

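Of the alternative values of the 10 genes' fold changes, 647 kept direction and side of the threshold, 33 changed sign, 8 lost and 2 gained a call. Leaving out 1 library at a time gave 0 to 2 genes called lower with SPI-24, and with SPI-77 against DMSO 0 to 397 higher, 0 to 1470 lower, 0 to 2 of the 10 and 0 to 26 list genes. For SPI-77 against SPI-24 the ranges were 0 to 115, 0 to 704 and 0 to 7 list genes. Sign changes in these fits were, for SPI-24 against DMSO, Cldn5 -0.13 to 0.20, Pecam1 -0.063 to 0.19, Flt1 -0.063 to 0.087, Kdr -0.50 to 0.019, Tek -0.017 to 0.10 and Cdh5 -0.10 to 0.057, and for SPI-77 against SPI-24 Kdr -0.27 to 0.25 and Slco1a4 -0.17 to 0.040. limma without trend called 510 lower and 6 list genes with SPI-77 against DMSO, and 0 higher, 0 lower and 0 list genes against SPI-24. DESeq2 called 130 higher, 821 lower and 7 list genes against SPI-24. Kdr against SPI-24 was -0.060 in edgeR and -0.056 in DESeq2, and Cldn5 with SPI-24 was -0.0025 with TMM scaling. The labels name no litter, batch or day behind the replicate numbers. Correlations were above 0.1 for 5 of 10 same-number pairs (range -0.16 to 0.21), so not for every pair, against 3 of 30 pairs with different numbers. Of 7 treated libraries 4 correlated best with the DMSO library of their number. The same-number pairs of SPI-24 and SPI-77 libraries 1 to 3 were at -0.0030, -0.0044 and 0.0015. These values do not settle whether libraries were paired by number. With a replicate block Vwf and Gpr182 stayed called (1.27 and 2.07), with 138 higher, 734 lower and 7 list genes for SPI-77 against DMSO, and Kdr was -0.10 against SPI-24.

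The alternatives chosen after seeing the data moved more. Without both libraries numbered 4, 455 genes were lower and 6 list genes called with SPI-77 against DMSO, 0 higher, 0 lower and 0 list genes against SPI-24, and Kdr was 0.044 with SPI-24 against DMSO and -0.27 with SPI-77 against SPI-24. Centring by transcript length gave 514 lower and 7 list genes with SPI-77 against DMSO, 0 higher, 0 lower and 0 list genes against SPI-24, Kdr 0.10 with SPI-77 and Cdh5 0.0023 with SPI-24 against DMSO. Keeping the 6 libraries with low Xist leaves SPI-24 with 1 library, which is assumed to vary like the other groups. It called 350 higher, 534 lower, 9 list genes and 1 of the 10, Mfsd2a (1.04, adjusted p = 0.0297), with SPI-24 against DMSO, where Kdr was 0.25, Cdh5 0.031 and Slco1a4 0.24. With SPI-77 against DMSO it called 898 higher, 1927 lower and 40 list genes. With SPI-77 against SPI-24 it called 326 higher, 7 list genes and 1 of the 10, Vwf (1.29, adjusted p = 0.0235), with Flt1 at -0.16, Kdr at -0.63 and Mfsd2a at -0.067. The causes were not tested. Depth limits Gpr182, with 17 reads in its lowest library.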
